A study of Mus musculus with 6 samples.

Results

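The genes described are those of the proteasome, taken as every gene name that begins with Psma to Psmg followed by a number, pseudogene names with -ps left out. The rule found 51 genes. By name, 19 were grouped as core (Psma, Psmb), 7 as ATPase (Psmc) and 14 as lid and base (Psmd). A further 11 were grouped as activators and chaperones (Psme, Psmf, Psmg). These groups follow the names alone, so a gene in a group need not encode a subunit of the finished particle. The table of pooled oocytes listed 47 of them among 14165 genes and the table of single oocytes 50 among 54658 genes, with 46 in both. Psmc3ip, a meiotic recombination factor, and Psme3ip1, a partner of the Psme3 activator, carry matching names but encode no proteasome subunit. Psmb8, Psmb9, Psmb10 and Psme1 had no row in the table of pools, and Psme3ip1 stands under its older name Fam192a in the other table.

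All samples were mouse oocytes at metaphase II (MII), the arrested stage that awaits fertilisation, with polyadenylated RNA read by Smart-seq2, which amplifies whole cDNA molecules by PCR. Young oocytes treated with siPlat, a short interfering RNA against the tissue plasminogen activator gene Plat, formed 2 pools of 10 oocytes, and young oocytes treated with siCtrl, a control short interfering RNA, formed another 2. One sample of 59 single oocytes was labelled aged and one of 35 single oocytes young, neither treated, with 1 library for each oocyte. Strain, genotype and age in numbers are not given in the sources used here, and no label tells which animals gave which oocytes. Replicate pools may therefore be technical, and a p-value measures only the spread between these pools.

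The proteasome is a barrel of alpha and beta rings whose inner beta sites cut proteins, capped by a regulatory particle with an ATPase ring that unfolds the substrate and a lid that removes its ubiquitin. Oocytes carry a maternal store of proteasome mRNA and protein, and destruction of cyclin B and securin by this machine ends the MII arrest. Activators replace the regulatory particle at the ends of the barrel, and chaperones guide assembly.

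Gene counts per pool were 12142884 and 13139499 in siPlat and 17475952 and 13442260 in siCtrl. Plat, the target, was at 51.4 and 39.0 CPM, the counts of a gene scaled to a common library total, in siPlat and at 441 and 439 CPM in siCtrl. Of the aged oocytes, 21 stood apart, with 6.78 to 61.6% of gene counts from mitochondrially encoded genes against 0.947 to 2.97% in the other 38 and 0.688 to 1.92% in young oocytes. Totals were 3399781 to 9502184 in the 38 aged, 2018226 to 8648061 in the 21 apart and 5480050 to 11894782 in young oocytes. Summed over 10 oocyte markers, levels were 14770 to 25270 CPM in the 38 aged, 780 to 3351 CPM in the 21 apart and 14690 to 24980 CPM in young oocytes, and 18940 and 15950 CPM in siPlat against 18370 and 19540 CPM in siCtrl. Markers of cumulus and granulosa cells summed to 24.2 to 88.8 CPM, 0 to 32.6 CPM and 45.9 to 105 CPM in the 38 aged, the 21 apart and the young oocytes. Blood and immune markers summed to 3.82 to 19.0, 0 to 129.9 and 4.74 to 21.2 CPM in the same order, and those of stroma, theca and endothelium to 75.1 to 178, 0 to 45.5 and 102 to 234 CPM. Among defining markers of other cells, Amh, Fshr and Foxl2 had 2, 7 and 2 counts over the 38 aged oocytes and 0 over the 21 apart and over the young ones, and Cyp17a1 had 0 in every oocyte. Other markers on these lists had counts: Cyp19a1 had 16942 over the 38 aged, 627 over the 21 apart and 21329 over the young, Pecam1 had 26955, 486 and 47353, and Inha had 3, 1 and 66 in the same order. The globin genes Hba-a1 and Hbb-bs had 765 and 332 counts over the 21 apart, against 0 and 1 over the 38 aged and 20 and 16 over the young. Their part in the results was not tested.

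Across the family, the core genes differed far more in level than the ATPase genes did. The scale for comparing genes is CPM per kilobase (kb) of transcript, here from counts summed over the oocytes of a group. Among the 14 standard core genes, Psma7, an alpha subunit, was highest at 1063 CPM per kb in the 38 aged oocytes and 917 CPM per kb in young oocytes. Psmb7, the beta subunit with trypsin-like activity, was lowest, at 1.62 CPM per kb in the 38 aged and 0.958 CPM per kb in young oocytes. The ratio of highest to lowest core gene was thus 657-fold in the 38 aged and 957-fold in young oocytes, although the subunits are built into the barrel in equal numbers. In the pools it was 1005-fold in siPlat and 566-fold in siCtrl, where Psmb5, the chymotrypsin-like subunit, was lowest at 2.11 CPM per kb in siPlat and 3.22 CPM per kb in siCtrl. The 6 ATPase subunits spanned 2.67-fold in the 38 aged oocytes, 4.04-fold in young oocytes, 5.70-fold in siPlat and 4.18-fold in siCtrl. Among 8 lid subunits, Psmd11 was highest in young oocytes at 99.8 CPM per kb and Psmd13 lowest at 0.196 CPM per kb.

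Some of the low genes share sequence with other genes, which may affect their counts. Of the 50-nucleotide words in the transcript, 57.06% for Psmb5 and 28.08% for Psmb7 recur in transcripts of other genes, and 34.91% of the Psmb7 exon bases overlap those of Nek6. Psmd13 shares 15.77% of its words, mainly with Sirt3. Psmb4, another beta subunit, shares 0% and overlaps no other gene, and was at 6.13 CPM in the 38 aged and 4.09 CPM in young oocytes. The part of shared sequence in these levels was not tested.

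**Figure D1:**
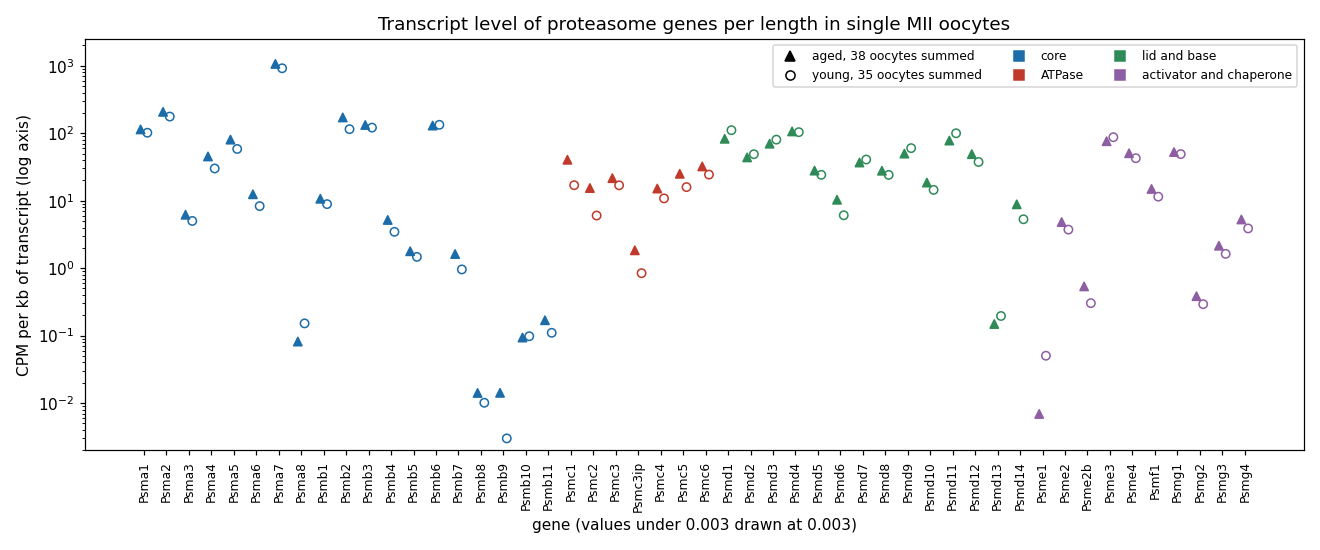
Level of each proteasome gene in single MII oocytes, as CPM per kb of transcript on a log axis, from counts summed over 38 aged oocytes (triangles, drawn left) and 35 young oocytes (circles). Colours mark the roles, and values below the axis floor are drawn at it. The core genes run from Psma7 at 1063 CPM per kb in aged and 917 CPM per kb in young oocytes down to the immunoproteasome genes near 0, while the 6 ATPase subunits lie within 2.67-fold in aged and 4.04-fold in young oocytes.

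Alternative subunits were scarce. Immunoproteasomes carry Psmb8, Psmb9 and Psmb10 in place of the standard active beta subunits Psmb5, Psmb6 and Psmb7. Psmb8 had 6 counts over the 38 aged oocytes and 5 counts over the 35 young, Psmb9 had 5 and 0, and Psmb10 had 32 and 39. The 0 counts of Psmb9 in young oocytes allow up to 0.00989 CPM. Of the standard active subunits, Psmb6, the caspase-like one, ranged over 81.7 to 136 CPM in the 38 aged oocytes (median 99.6), 0 to 115.8 CPM in the 21 apart (2.78) and 68.2 to 189 CPM in young oocytes (106). Psmb5 was at 1.60 CPM (range over oocytes 0.145 to 6.96) in the 38 aged and 1.32 CPM (0.151 to 3.53) in the young. Psmb7 was at 1.88 CPM (0.143 to 5.06) in the 38 aged and 1.11 CPM (0 to 2.49) in the young. The thymic subunit Psmb11 was at 0.72 CPM in the 38 aged and 0.47 CPM in the young, and Psma8, the alpha subunit of the testis, had 36 counts in the 38 aged and 78 counts in the young. Of the activators, Psme3 and Psme4, which act in the nucleus, were at 203 and 328 CPM in the 38 aged oocytes and at 232 and 277 CPM in the young. Psme1, of the interferon-induced activator, had 2 counts in the 38 aged and 17 in the young, and its partner Psme2 was at 4.64 CPM in the 38 aged and 3.59 CPM in the young, with 59.26% of its words recurring in other genes.

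The spread from oocyte to oocyte was read from the well-expressed members. Among the 27 members with at least 20 CPM in young oocytes, the standard deviation over the 38 aged oocytes was 10.2 to 43.1% of the mean (median 21.1%). Over the 35 young oocytes it was 9.88% (Psmd11) to 33.7% (Psme4), with a median of 20.4%. The sum over all members was 4077 to 5339 CPM in the 38 aged oocytes (median 4551), 334 to 2401 CPM in the 21 apart (1032) and 3900 to 4688 CPM in the young (4226).

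The comparison of ages asked how aged oocytes differ from young ones, and with 1 sample of each age no difference could be tested. Leaving out the 21 oocytes that stood apart, all 6 ATPase subunits were higher in aged oocytes on the CPM scale, led by Psmc2 and Psmc1, whereas per ERCC spike-in count only these 2 were above 0. Core genes were mostly higher by less on the CPM scale and lower per ERCC count, and lid and base genes went both ways on the CPM scale. Per ERCC count the median of all genes was itself below 0, at -0.71. Log2 ratios use a pseudocount of 1 CPM, and 34 members reached 5 CPM when both ages were averaged. Of these, 26 were above 0, a share of 76.47% beside 59.6% of all 8303 genes at that level, and their median was 0.25 beside 0.08 for all genes. With all 59 aged oocytes the members' median was -0.06 and that of all genes -0.07, with 15 of 34 members above 0 beside 43.6% of all genes. By role, the medians with all 59 were -0.11 in the core (4 of 11 genes above 0), 0.15 for the ATPases (5 of 6), -0.35 in the lid and base (4 of 13) and -0.09 for activators and chaperones (2 of 4).

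ERCC spike-ins are synthetic RNAs added to a lysate, and whether each oocyte received an equal amount was not checked. On that scale the median of all genes stood at -1.43 for all 59 aged oocytes and -0.71 for the 38. The members' medians were then -1.44 and -0.56, which is 0.01 below and 0.15 above that of all genes. Relative to the median of all genes, the 6 ATPase subunits were above with the 38 and with all 59 aged oocytes, on the CPM scale and per ERCC count. For the core it was 10 of 11 genes with the 38 and 4 of 11 with all 59, on both scales.

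Psmc1 and Psmc2, subunits of the ATPase ring, had log2 ratios ranking 58th and 40th among the 8303 genes. Psmc1 lies on chromosome 12 at 100110154 to 100123405 and Psmc2 on chromosome 5 at 21785283 to 21803787 (GRCm38, named mm10), both on the plus strand. Psmc1 ranged over 43.97 to 92.95 CPM in the 38 aged oocytes (median 64.0), 1.43 to 24.3 CPM in the 21 apart (9.34) and 17.9 to 42.8 CPM in the 35 young (27.6). Every one of the 38 was above every young oocyte, which was so for 0.12% of the 8303 genes. Psmc1 summed to 64.3 CPM (counting interval 63.3 to 65.2) in the 38 aged and 27.0 CPM (26.4 to 27.6) in the young, so that its log2 ratio was 1.22 (0.85 with all 59). Psmc2 ranged over 14.3 to 50.5 CPM in the 38 aged oocytes (median 26.6), 0 to 17.2 CPM in the 21 apart (0.54) and 4.53 to 23.9 CPM in the young (9.79). Of the 38, 24 were above the highest young oocyte and all 38 above the young median, with a log2 ratio of 1.28 (0.87 with all 59). Log2 ratios above 1 were found for these 2 members only, beside 1.57% of all genes. Per ERCC count the ratios of the 38 aged were 0.40 for Psmc1 and 0.48 for Psmc2, and those of all 59 turned to -0.58 and -0.50.

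The levels of both genes also differed between the sets of young oocytes. In the pools, which are young too but sit in a separately made table, Psmc1 was at 73.2 and 68.7 CPM in siPlat and 59.1 and 65.8 CPM in siCtrl. Psmc2 was at 44.6 and 23.3 CPM in siPlat and 31.4 and 35.0 CPM in siCtrl. All of these values lie nearer to the medians of the 38 aged single oocytes than to those of the young single oocytes. Other levels also differed between the tables. Summed over all members, the siCtrl pools held 7535 and 7367 CPM, against a median of 4226 CPM in young single oocytes. Plat was at 441 and 439 CPM in siCtrl, against a median of 7077 CPM in young single oocytes. The tables were scaled separately, and what sets the levels apart was not tested. Of the Psmc1 transcript, 17.57% of words recur in other genes, chiefly Gm9575, which was at 0.15 CPM in the 38 aged and 0.0494 CPM in the young; Psmc2 shares 0%.

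The remaining ATPase genes were higher by less. Psmc5 ranged over 22.6 to 50.3 CPM in the 38 aged oocytes (median 33.4), 0 to 11.4 CPM in the 21 apart (1.62) and 12.4 to 32.4 CPM in the young (21.1), a log2 ratio of 0.63. Psmc4 was at 0.46. Psmc6 ranged over 45.7 to 132 CPM in the 38 aged (median 69.7) and 36.8 to 85.0 CPM in the young (51.4), a ratio of 0.40. Psmc3 ranged over 22.7 to 71.1 CPM in the 38 aged (35.4) and 15.4 to 40.6 CPM in the young (27.4), a ratio of 0.34. The ranges of these 4 genes overlapped between the ages, and with all 59 their ratios were 0.24, 0.05, 0.06 and -0.03. Summed over the ATPase names, each of the 38 aged oocytes held 200.3 to 351 CPM (median 255), against 6.58 to 78.8 CPM in the 21 apart and 128.6 to 202.6 CPM in the young (155).

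In the core, 10 of the 11 genes kept were above 0 and 1 below on the CPM scale, with a median of 0.25. Per ERCC count all 11 were below 0, but 10 of 11 lay above the median of all genes, -0.71. Psma4, an alpha subunit, ranged over 35.4 to 83.3 CPM in the 38 aged oocytes (median 52.2), 0.546 to 36.8 CPM in the 21 apart (12.4) and 25.9 to 55.7 CPM in the young (34.2), a log2 ratio of 0.58. Psmb2, a beta subunit without an active site, ranged over 71.7 to 354 CPM in the 38 aged (134), 0 to 29.9 CPM in the 21 apart (7.74) and 40.9 to 203 CPM in the young (93.0), a ratio of 0.57. Psmb3, a further beta subunit, ranged over 67.6 to 150.1 CPM in the 38 aged (98.0), 0 to 25.8 CPM in the 21 apart (0.535) and 56.5 to 134 CPM in the young (93.3), a ratio of 0.13, and Psmb6, described above, had -0.04. The ranges of all 4 genes overlapped between the ages. With all 59 the ratios were 0.27 for Psma4, 0.16 for Psmb2, -0.29 for Psmb3 and -0.37 for Psmb6. Psma4 and Psmb3 share 31.54% and 55.79% of their words with other genes.

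In the lid and base, 7 of 13 genes were above 0 and 6 below on the CPM scale, with a median of 0.04. Per ERCC count all 13 were below 0, and 6 of 13 lay above the median of all genes, -0.71. Psmd14, the subunit that cuts ubiquitin from the substrate, ranged over 7.56 to 24.2 CPM in the 38 aged oocytes (median 13.2), 0 to 16.4 CPM in the 21 apart (0.415) and 3.77 to 11.6 CPM in the young (8.07). Of the 38, 28 were above the highest young oocyte, and the log2 ratio was 0.67. Psmd6, a lid subunit, ranged over 7.27 to 30.2 CPM in the 38 aged (14.5), 0 to 23.9 CPM in the 21 apart (1.43) and 3.62 to 13 CPM in the young (7.97), a ratio of 0.70. With all 59 these ratios were 0.31 and 0.38. Psmd1, a large scaffold of the base, was lower instead, at 161.9 to 361 CPM in the 38 aged (248), 15.7 to 143 CPM in the 21 apart (65.9) and 217 to 447 CPM in the young (342). Only 2 of the 38 were above the young median, and the log2 ratio was -0.42 (-0.74 with all 59). Psmd11, a lid scaffold, was at 165 to 289 CPM in the 38 aged (227.5) and 193 to 339.5 CPM in the young (286), a ratio of -0.36 (-0.39 with all 59). Both were also lower per ERCC count, at -1.26 and -1.19 for the 38, below the -0.71 of all genes.

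Among activators and chaperones, 3 of 4 genes kept were above 0 on the CPM scale and all 4 below 0 per ERCC count. On the ERCC scale 2 of the 4 lay above the median of all genes, -0.71. Psmf1, a proteasome inhibitor in purified systems, ranged over 27.7 to 90.4 CPM in the 38 aged oocytes (median 54.5), 0 to 84.2 CPM in the 21 apart (7.06) and 28.3 to 58.5 CPM in the young (42.5), a log2 ratio of 0.37. Psmg1, an assembly chaperone of the core, was at 32.8 to 77.2 CPM in the 38 aged (54.1) and 24.5 to 86.7 CPM in the young (48.9), a ratio of 0.10. Psme3 was at 123 to 343 CPM in the 38 aged (188) and 159 to 349 CPM in the young (228), a ratio of -0.20. The ranges overlapped for each, and with all 59 the ratios were 0.10, -0.27 and -0.43.

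**Figure D2:**
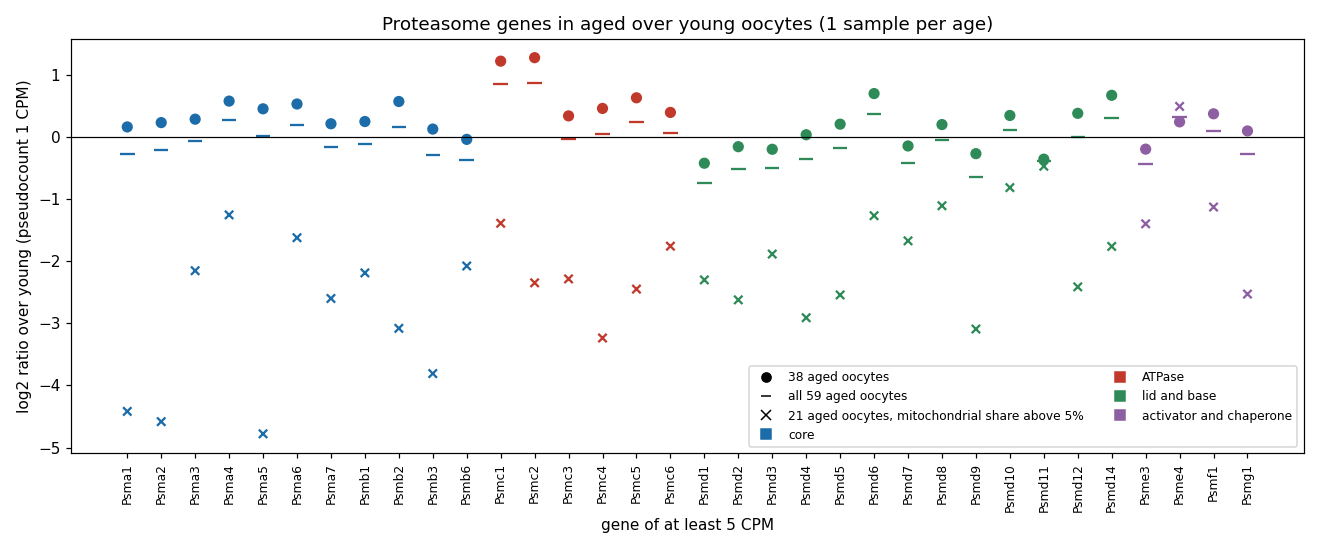
Log2 ratio of aged over young oocytes for the 34 proteasome genes of at least 5 CPM, with 38 aged oocytes (dots), all 59 (dashes) and the 21 apart (crosses); each value comes from summed counts and has no replicate error. Psmc1 and Psmc2 lie at 1.22 and 1.28 with the 38 aged oocytes on the CPM scale (0.40 and 0.48 per ERCC count), and the crosses lie below 0 except that of Psme4.

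The 21 aged oocytes that stood apart held less proteasome mRNA relative to other transcripts. In them 31 of 34 members had a log2 ratio under -1 relative to young, beside 49.3% of all genes, and the members' median was -2.24 beside -0.97 for all genes. By role the medians were -2.60 for the core, -2.32 for the ATPases, -1.88 for the lid and base and -1.26 for activators and chaperones. Psme4, which in mouse spermatids takes part in histone loss, went the other way on the CPM scale. It ranged over 118 to 1079 CPM in the 21 apart (median 350), 165 to 523 CPM in the other 38 (336) and 153 to 555 CPM in the young (264), a log2 ratio of 0.49 for the 21 and 0.24 for the 38. Psmd11 was the least reduced of the rest, at 29.8 to 404 CPM in the 21 apart (median 198) and a ratio of -0.47. Mitochondrial share, oocyte markers and depth moved with these values, and their part was not tested.

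**Figure D3:**
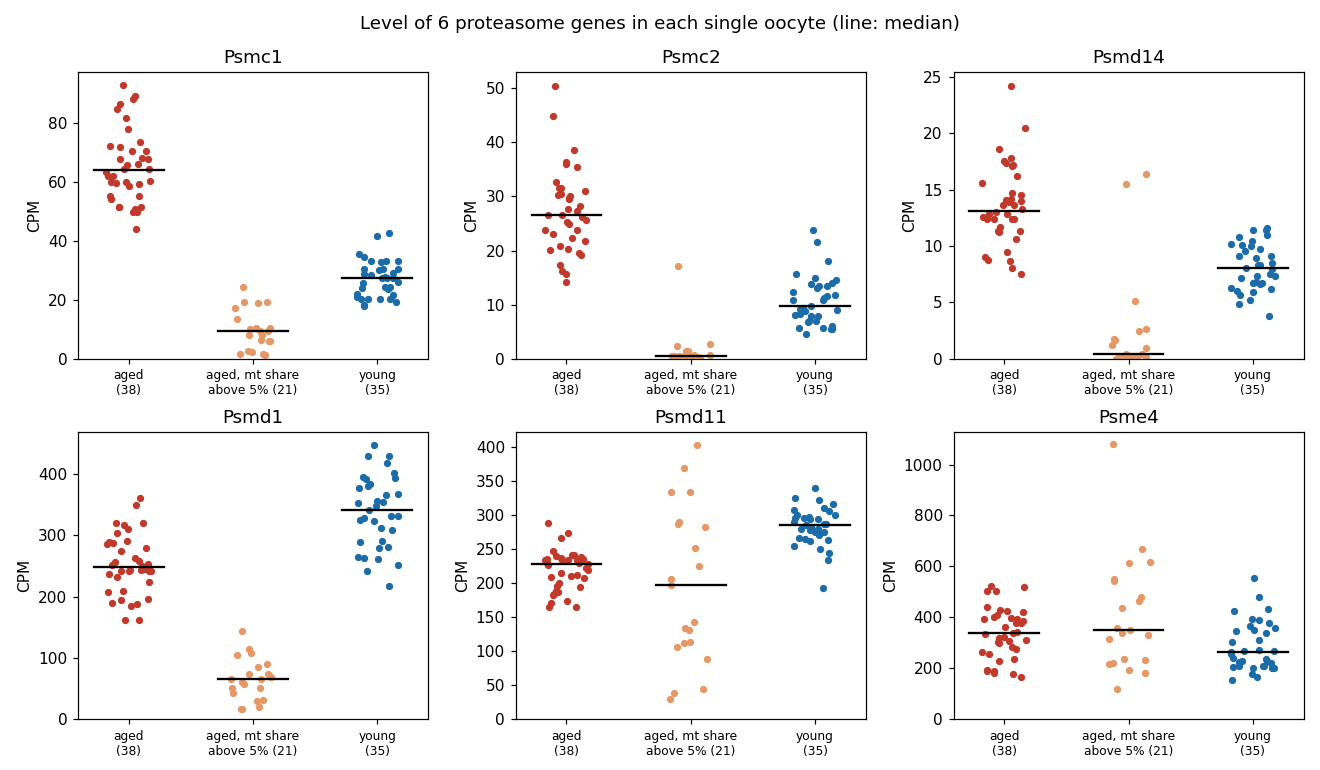
CPM of 6 proteasome genes in each single oocyte, with 38 aged, 21 aged above a mitochondrial share of 5% and 35 young oocytes from left to right; each point is 1 oocyte and the line is the median. The 38 aged oocytes lie above all young ones for Psmc1 (medians 64.0 and 27.6 CPM), and overlap them for the other genes. The medians of the 21 apart are 0.54 CPM for Psmc2 and 0.415 CPM for Psmd14, with single oocytes up to 17.2 and 16.4 CPM, and 198 CPM for Psmd11 and 350 CPM for Psme4.

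Sequence before the start is shown for Psmc1, whose level in the 38 aged oocytes lay above all young ones (the 21 apart overlapped the young). Psmd11, lower in the 38 aged, is shown too. Among members of the regulatory particle of at least 5 CPM, it was the least reduced in the 21 apart. The windows are from RefSeq on GRCm38.p6, on the plus strand, 5′ to 3′, and end before the annotated exons. They are chr12:100109952-100110153 for Psmc1 and chr11:80428365-80428614 for Psmd11. Capitals mark CCAAT and GGGCGG on either strand.
Psmc1: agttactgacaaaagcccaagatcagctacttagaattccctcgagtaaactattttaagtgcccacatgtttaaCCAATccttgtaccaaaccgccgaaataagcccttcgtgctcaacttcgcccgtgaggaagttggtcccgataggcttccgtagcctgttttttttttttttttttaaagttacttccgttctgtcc
Psmd11: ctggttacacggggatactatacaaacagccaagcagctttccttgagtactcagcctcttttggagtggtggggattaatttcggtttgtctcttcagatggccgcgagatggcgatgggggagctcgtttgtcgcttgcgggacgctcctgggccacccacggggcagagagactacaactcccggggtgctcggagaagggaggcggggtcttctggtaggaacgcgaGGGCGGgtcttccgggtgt
Psmc1 holds 1 CCAAT and Psmd11 holds 1 GGGCGG, and neither holds TGACNNNGC, the core of the antioxidant response element read by Nfe2l1 and Nfe2l2. The Psmc1 stretch is 202 bases because its window was ended at the first annotated exon. The shares that follow use whole windows of 250 bases, which were found for 43 of the 51 members, 47 windows in all. CCAAT occurred in 34.04% of the member windows beside 33.85% of 32851 mouse promoters of the same length. GGGCGG occurred in 51.06% beside 32.74%, and TGACNNNGC in 10.64% beside 10.16%. Each motif was counted by itself on both strands, so matches of different motifs may overlap. The members with TGACNNNGC were Psmb5, Psmb6, Psmc6, Psmd9 and Psmd12. A match describes these letters and is no evidence of binding.

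The comparison of pools asked what the loss of Plat changes, and no proteasome gene passed the test. By edgeR's quasi-likelihood test with Benjamini-Hochberg adjustment, 0 of the 43 members tested had an adjusted p under 0.05, beside 3.54% of all 11136 genes. DESeq2 and limma-voom also called 0, beside 6.09% and 3.72% of all genes, and 5 members had an unadjusted p under 0.05 in edgeR, beside 18.8% of all genes. The median log2 fold change of siPlat over siCtrl was 0.08 (all genes -0.03), with 26 members above 0 and 17 below, between -0.84 and 0.84. Of all 11136 genes, 5321 were above 0 and 5815 below. Both siPlat pools lay above both siCtrl pools for 13 members and below for 6, beside 23.5% and 25.8% of all genes. Summed over all 47 listed members, the level was 8340 and 7440 CPM in siPlat and 7535 and 7367 CPM in siCtrl. Because each pool holds 10 oocytes, fewer oocytes carrying a transcript and less of it in each cannot be told apart.

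By role, the medians were -0.02 in the core (7 of 14 above 0), 0.18 for the ATPase names (5 of 7), 0.12 in the lid and base (8 of 13) and 0.11 for activators and chaperones (6 of 9). Psma4 was at 437 and 322.5 CPM in siPlat and 279 and 290 CPM in siCtrl, with a log2 fold change of 0.42 (SE 0.18). Psma5, another alpha subunit, was at 81.5 and 67.0 CPM in siPlat and 112 and 106 CPM in siCtrl, a fold change of -0.55 (SE 0.18). The siPlat pools lay on 1 side of the siCtrl pools in both genes, with adjusted p = 0.229 for Psma4 and 0.127 for Psma5 by edgeR. Psma5 has 55.38% of its words in other genes.

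The other core genes at the ends of the range did not pass either. Psma1, an alpha subunit, was at 332 and 219 CPM in siPlat and 237 and 232 CPM in siCtrl (0.23). Psmb1, a beta subunit without an active site, was at 9.48 and 7.78 CPM in siPlat and 8.46 and 22.5 CPM in siCtrl (-0.84, SE 0.42), and 1 siCtrl pool stood above the other 3 pools. Psmb5 was at 1.98 and 1.81 CPM in siPlat and 2.69 and 3.11 CPM in siCtrl, with siPlat below (-0.61, SE 0.55, edgeR adjusted p = 0.609). The other active subunits, Psmb6 at 156 and 134 CPM in siPlat against 135 and 131 CPM in siCtrl and Psmb7 at 3.96 and 3.30 CPM against 3.30 and 4.45 CPM, differed by 0.12 and -0.09. Psma8 had 0 and 2 counts in siPlat and 0 and 0 in siCtrl.

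Of the ATPase names, Psmc3 was at 35.7 and 30.8 CPM in siPlat and 22.6 and 24.6 CPM in siCtrl, with siPlat above (0.50, SE 0.21, edgeR adjusted p = 0.240). Psmc3ip was at 4.40 and 7.93 CPM in siPlat and 4.14 and 3.46 CPM in siCtrl (0.70). Psmc4 was at 16.5 and 19.3 CPM in siPlat and 17.2 and 27.1 CPM in siCtrl (-0.31), and Psmc5 at 52.0 and 54.0 CPM in siPlat and 62.4 and 68.2 CPM in siCtrl (-0.30). Psmc1 and Psmc2, the genes farthest apart between the ages, differed by 0.18 and 0.03 in the pools.

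Of the lid and base, Psmd14 was at 21.2 and 19.0 CPM in siPlat and 27.2 and 31.7 CPM in siCtrl, with siPlat below (-0.55, SE 0.22, edgeR adjusted p = 0.212). Psmd4, a ubiquitin receptor, was at 193 and 207 CPM in siPlat and 143 and 172 CPM in siCtrl (0.35, SE 0.17, edgeR adjusted p = 0.301), and Psmd6 at 37.6 and 38.3 CPM in siPlat and 29.7 and 30.7 CPM in siCtrl (0.33). In both, siPlat lay above. Psmd3, a lid scaffold, was at 10.9 and 25.8 CPM in siPlat and 24.6 and 30.3 CPM in siCtrl (-0.58, SE 0.35), the siPlat pools differing from each other by more than the siCtrl pools did.

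Of activators and chaperones, Psmg4, an assembly chaperone, was at 16.0 and 9.43 CPM in siPlat and 7.73 and 6.43 CPM in siCtrl (0.84, SE 0.34, edgeR adjusted p = 0.207). Psme2 was at 3.28 and 2.98 CPM in siPlat and 1.18 and 2.33 CPM in siCtrl (0.84, SE 0.58), and siPlat lay above for both. Psme3 was at 28.2 and 47.4 CPM in siPlat and 45.2 and 33.8 CPM in siCtrl (-0.06), and Psme4 at 260 and 245 CPM in siPlat and 274 and 237 CPM in siCtrl (-0.02), with overlapping pools.

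**Figure D4:**
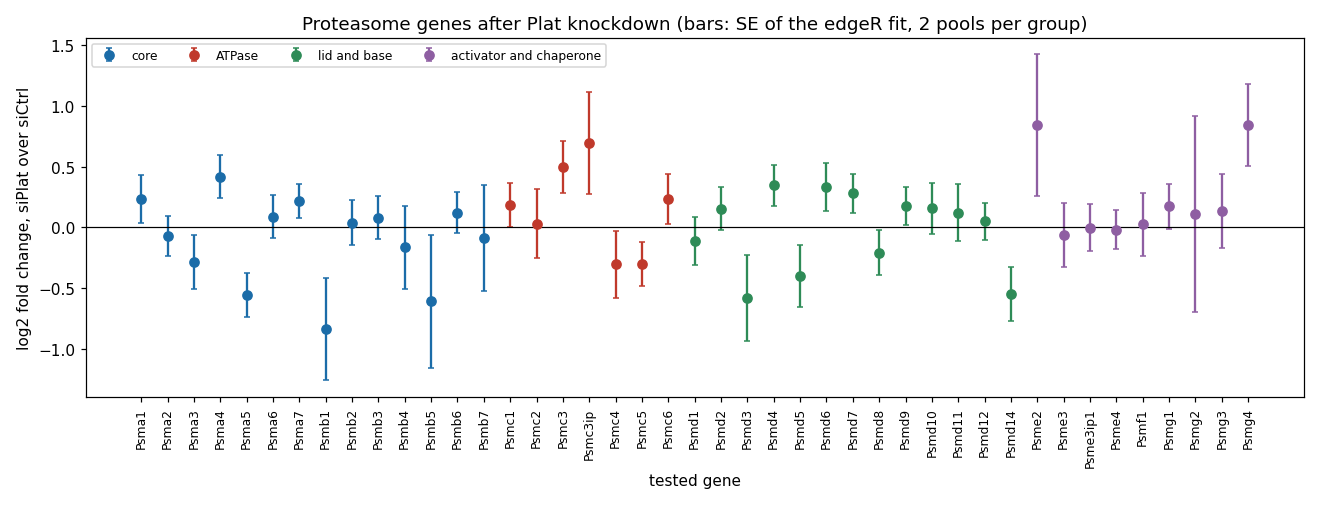
Log2 fold change of siPlat over siCtrl for the 43 proteasome genes tested, with the standard error of the edgeR fit as bars (2 pools in each group) and colours for the roles. The values run from -0.84 (Psmb1) to 0.84 (Psme2 and Psmg4), and none passed an adjusted p of 0.05.

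Members passed only in fits without 1 of the siPlat pools, and at no higher a share than all genes did there. Without siPlat 1, Psma5 was called (-0.71, edgeR adjusted p = 0.0269) beside 6% of all genes. Without siPlat 2, Psma1 (0.52), Psma4 (0.63), Psmg4 (1.19) and Psmd3 (-1.32) were called by edgeR, with adjusted p = 0.0389, 0.0104, 0.0306 and 0.00546, beside 9.66% of all genes. In these fits the lone siPlat pool is taken to vary like the siCtrl pools.

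A further 30 genes of ubiquitin supply, proteasome-bound factors, assembly and transcription were tested in the pools, where 1 rose, 1 fell and 28 did not pass, with a median of 0.10. Of all genes, 2.13% rose and 1.41% fell. Akirin2, which in human cells brings proteasomes into the nucleus, rose, at 680 and 678 CPM in siPlat and 430 and 429 CPM in siCtrl (0.66, SE 0.14, edgeR adjusted p = 0.0313). Uba6, a ubiquitin-activating enzyme, fell, at 34.1 and 33.5 CPM in siPlat and 61.8 and 71.7 CPM in siCtrl (-0.98, SE 0.19, edgeR adjusted p = 0.0221). Both calls ended without siCtrl 1 (edgeR adjusted p = 0.261 for Akirin2 and 0.0658 for Uba6) and without siCtrl 2 (0.280 and 0.165). Usp14, a deubiquitinase on the regulatory particle, was at 584 and 465 CPM in siPlat and 386 and 292 CPM in siCtrl (0.63, edgeR adjusted p = 0.0891), and passed in DESeq2 (adjusted p = 0.0272), in edgeR without the expression filter (0.0435) and in edgeR without siPlat 2 (0.00387). Pomp, the maturation chaperone of the core, was at 131 and 118 CPM in siPlat and 90.5 and 80.6 CPM in siCtrl (0.54, edgeR adjusted p = 0.122), and passed without siPlat 2 (0.0299). The ubiquitin receptor Adrm1 (0.28), the small lid protein Sem1 (0.09), the deubiquitinase Uchl5 (0.13) and Nfe2l1, the activator of proteasome genes (0.09), differed by less. Usp14 overlaps Thoc1 in 45.9% of its exon bases and shares 45.33% of its words with that gene. Adrm1 shares 77.99% of its words with Gm9774, and the part of shared sequence in these levels was not tested. Between the ages, 26 of the 30 genes were kept. In the 38 aged oocytes 14 were above 0 and 12 below, 53.85% above beside 59.6% of all genes. Their median was 0.03 (all genes 0.08). With all 59, 7 were above 0 and 19 below, with a median of -0.24 (all genes -0.07). On the CPM scale Sem1 (0.83), Uchl5 (0.79), Usp14 (0.64) and Pomp (0.51) were among the higher ones in the 38. With all 59 they were at 0.40, 0.55, 0.43 and 0.16. Nfe2l1 was at 0.25 and Adrm1 at 0.14 in the 38, and at 0.31 and -0.26 with all 59.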

How the data were processed

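The tables the authors deposited hold raw read counts by gene, as whole numbers, in a table of 4 pools and a table of 94 single-oocyte columns; 1 further column of the second table has no name and was not used. STAR 2.7.10b, HTSeq 0.13.5 and mm10 are named per the submitters' processing notes. No source used here gives the annotation, gene filter or strand setting. Overlapping genes cannot be told apart.

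Members, gene lists and tests were chosen with earlier results of these data known. Pools were compared with edgeR 4.0.16 (robust quasi-likelihood fit, TMM, default filter with a minimum count of 10 and total of 15, no covariate) in R 4.3.3 over the whole table, with Benjamini-Hochberg adjustment at 0.05; DESeq2 1.42.0 and limma-voom 3.58.1 were alternatives. On simulated counts the fit recovered 38 of 100 genes changed 2-fold and 69 of 100 changed 4-fold, with 5 false calls. A gene that did not pass may therefore still differ. SE is the absolute log2 fold change over the square root of F. Replicate pools differed beyond counting error (chi-square per degree of freedom 28.5 in siPlat and 18.0 in siCtrl). Single-oocyte counts were summed per age, 1 sample each, and given as CPM without the 92 ERCC entries, with exact Poisson intervals at 95%; the limit of a count of 0 is 3 counts. Reads carry no molecular identifiers named in the labels, so intervals and limits cover counting error only. Genes of at least 5 CPM were kept, and ratios are log2 of CPM plus 1. Oocytes above 5% mitochondrial share were set apart by that share, not by a label. Lengths, positions and exon overlap are from GENCODE M21 on GRCm38, using the longest transcript of the best annotation grade.

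Named with full values were, per role, the 2 highest and 2 lowest members in each comparison (by age without the 21 apart), the active-site subunits, Psma8 and members with an unadjusted p under 0.05. Paaf1 was not analysed here. The alternatives were other normalizations, filters, tools, pseudocounts and summaries, each pool left out, and a replicate block.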

Additional observations from a re-analysis of the deposited data

How the results depend on the processing

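In the pools, edgeR called 394 of 11136 genes and 0 members, and 0 members were called under each other normalization, filter and tool, while DESeq2 called 678 genes. The replicate block gave 273 genes and 0 members; its numbers are shared by name only (correlation of same-numbered deviations -0.06), and with the block the adjusted p of Akirin2 was 0.0575. Leaving out 1 pool at a time gave 157 to 1145 genes, 0 to 4 members and a members' median of 0.000828 to 0.17; the cause was not tested. Small uncalled fold changes turned sign: Psme3ip1 was at 0.0140 with DESeq2 size factors in edgeR, 0.0142 with upper-quartile factors, 0.0141 in DESeq2 and 0.000208 in limma-voom, Psme4 at 0.000758 with upper-quartile factors, and Psmc2 at -0.0503 in limma-voom and -0.0385 with the replicate block. With 1 pool left out, log2 fold changes that crossed 0 ranged over -0.10 to 0.52 for Psma1, -0.26 to 0.11 for Psma2, -1.38 to 0.028 for Psmb1, -0.23 to 0.27 for Psmb2, -0.12 to 0.26 for Psmb3, -0.46 to 0.21 for Psmb4, -0.29 to 0.14 for Psmb7, -0.52 to 0.44 for Psmc2, -0.60 to 0.058 for Psmc4, -0.069 to 0.49 for Psmc6, -0.44 to 0.16 for Psmd1, -0.33 to 0.47 for Psmd11, -0.48 to 0.26 for Psme3, -0.20 to 0.19 for Psme3ip1, -0.12 to 0.093 for Psme4, -0.091 to 0.15 for Psmf1, -0.57 to 1.04 for Psmg2, -0.037 to 0.31 for Uchl5, -0.21 to 0.35 for Sem1, -0.15 to 0.62 for Adrm1 and -0.29 to 0.39 for Nfe2l1.

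Between the ages, the members' median log2 ratio with all 59 aged oocytes was -0.06. It was 0.25 without the 21 oocytes apart, 0.056 without mitochondrially encoded genes, -1.44 per ERCC count, -0.087 with TMM factors, 0.00181 with the median and -0.20 with the mean over oocytes, -0.065 and -0.052 with pseudocounts of 0.1 and 5 CPM, and -0.011 without the filter. Chosen after seeing the data, the settings that combine the loss of the 21 oocytes with ERCC scaling or with the median over oocytes gave -0.56 and 0.27, and leaving out Psmc3ip and Psme3ip1 left the median of the pools at 0.08 (neither was among the 34 genes of the ages). The members' median minus that of all genes stayed between -0.05 and 0.08 in the settings with all 59 aged oocytes, and between 0.15 and 0.19 in those without the 21. Levels of Psmb8, Psmb9, Psmb10 and Psme1 rest on few counts in any group of single oocytes.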
